A study of Mus musculus with 48 samples.

Results

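Gene expression in the spinal cord of wild-type (WT) mice was compared between 6 and 3 months of age. The comparison used the 6 arrays that the sample labels give as WT spinal cord, 3 at each age, of 48 arrays in the series. The study profiled spinal cord, cerebellum, midbrain and liver of mice without a functional Tia1 gene (KO) and of WT mice at both ages. Tia1 encodes a protein that binds mRNA and starts the assembly of stress granules. All 6 mice of the comparison were untreated, carried no engineered allele and had the genetic background C57Bl/6. Per the study's methods they were C57BL6/J animals bought from The Jackson Laboratory, whereas the KO mice came from another institution and had been crossed onto that background. The design text of the series instead calls the WT mice littermates of the KO mice, and the sources used here do not settle which holds. Arrays hold RNA of dissected spinal cord, and how much of the roots and coverings came with it is not given in the sources used here. The labels number the mice 1 to 3 at each age, and the ages were treated as separate mice. Age, cohort and the colony from which the mice came cannot be told apart in this design, and "6 months" below stands for the group of that age with all that it shared.

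The spinal cord holds motor neurons, relay neurons and interneurons of the sensory and motor paths, and long myelinated tracts, so that oligodendrocytes and their myelin contribute much of its RNA. In the mouse the cord is adult at both ages, and the last phase of myelin addition and of vessel and matrix maturation lies in the preceding weeks. In whole tissue, fewer cells of a type and less RNA per cell cannot be told apart.

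The arrays matched the labelled tissue. The 26 measured Hox genes, which mark the cord and hindbrain, had a median level of 6.64 on the log2 scale in WT spinal cord against 2.64 in cerebellum and 2.61 in midbrain, and the myelin list reached 9.67. Array-to-array correlation was 0.992 to 0.997 within the 3-month group and 0.996 to 0.997 within the 6-month group. The 3′ minus 5′ differences of the control probe sets, which grow as RNA degrades, ran from 0.753 to 0.903 at 3 months and from 0.821 to 0.983 at 6 months for actin, and from 0.295 to 0.331 and from 0.271 to 0.288 for GAPDH. Xist read 2.78 to 3.13 and the Y-linked Eif2s3y 7.13 to 7.50 in all 6 mice, so that sex did not differ between the groups.

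Some 3-month arrays stood apart in markers of tissue that lies next to the cord. In WT 3 at 3 months the 14 skeletal muscle genes had a median level of 10.03, against 3.02 to 3.98 in the other 5 arrays. Among them Ckm, the creatine kinase of muscle, read 3.13, 2.75 and 9.48 at 3 months and 3.18, 2.89 and 3.60 at 6 months. The 7 sensory ganglion genes had a median of 4.52, 5.64 and 2.97 at 3 months and of 3.26, 3.35 and 3.57 at 6 months, where WT 2 at 3 months was also the highest for the Schwann cell list (7.37, against 6.71 to 7.02 in the others). No member of the muscle or ganglion lists passed the test for age. The Schwann cell and matrix results are given below also without these arrays.

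**Figure D1:**
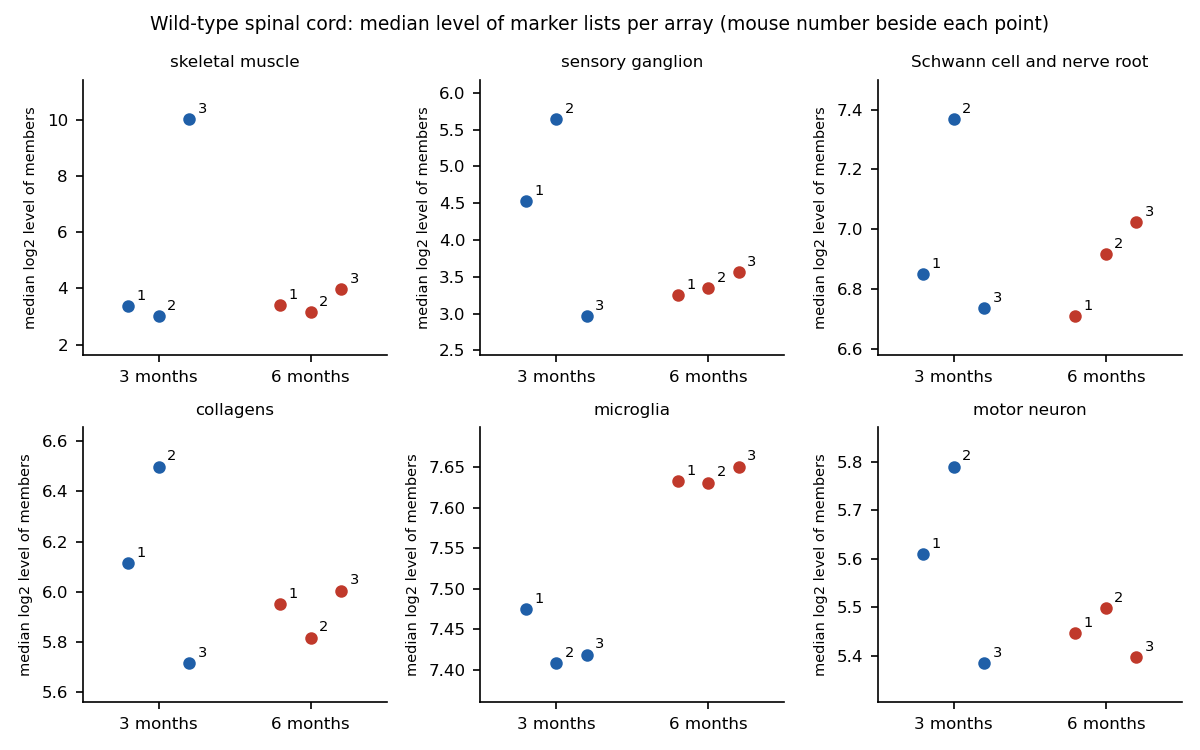
Median log2 level of the members of 6 marker lists in each WT spinal cord array; each point is 1 array, the number beside it the mouse, blue 3 months and red 6 months. WT 3 at 3 months stands at 10.03 in the skeletal muscle panel, WT 2 at 3 months is highest for sensory ganglion, Schwann cell, collagen and motor neuron genes, and the microglia panel is the only one of the 6 whose ages do not overlap.

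Age was associated with a small set of changes. Of 45037 probe sets tested with limma over the 18 WT arrays of spinal cord, cerebellum and midbrain, 212 passed a Benjamini-Hochberg adjusted p of 0.05, which is 0.471% of those tested, 100 of them higher and 112 lower at 6 months. The 150 of these that the annotation pairs with a single symbol belonged to 135 genes, 56 higher and 79 lower, while 57 had no symbol and 5 had several. The differences were modest. The median size of a called difference was 0.58 log2 units, and 26 probe sets differed by at least 2-fold, 13 in each direction. In all 212 the 3 arrays of an age lay outside the range of the other age. The number of calls depended on how the spread was estimated: the 6 spinal cord arrays fitted alone called 22 higher and 22 lower probe sets, of which 39 were among the 212.

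Single arrays also moved that number, and the count fell to 97 without WT 2 at 6 months, to 111 without WT 1 at 6 months, to 119 without WT 2 at 3 months and to 125 without WT 1 at 3 months. Leaving out the array with muscle RNA, WT 3 at 3 months, gave 244 calls, 77 higher and 167 lower, of which 137 were among the 212. Leaving out WT 3 at 6 months gave 206. The direction of the 212 could not turn in these fits, since the ages did not overlap. Of the 212, 65 were called in all 6 of the fits. Genes in the text were taken by a fixed rule that gives the 15 largest called changes per direction, and a call that depends on an array is given with the adjusted p without it. By the brightest probe sets of 17097 genes, 0.205% were called higher and 0.357% lower. These shares stand beside all counts of called list members below. The lists were chosen with earlier results of these data known and have no test of their own.

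**Figure D2:**
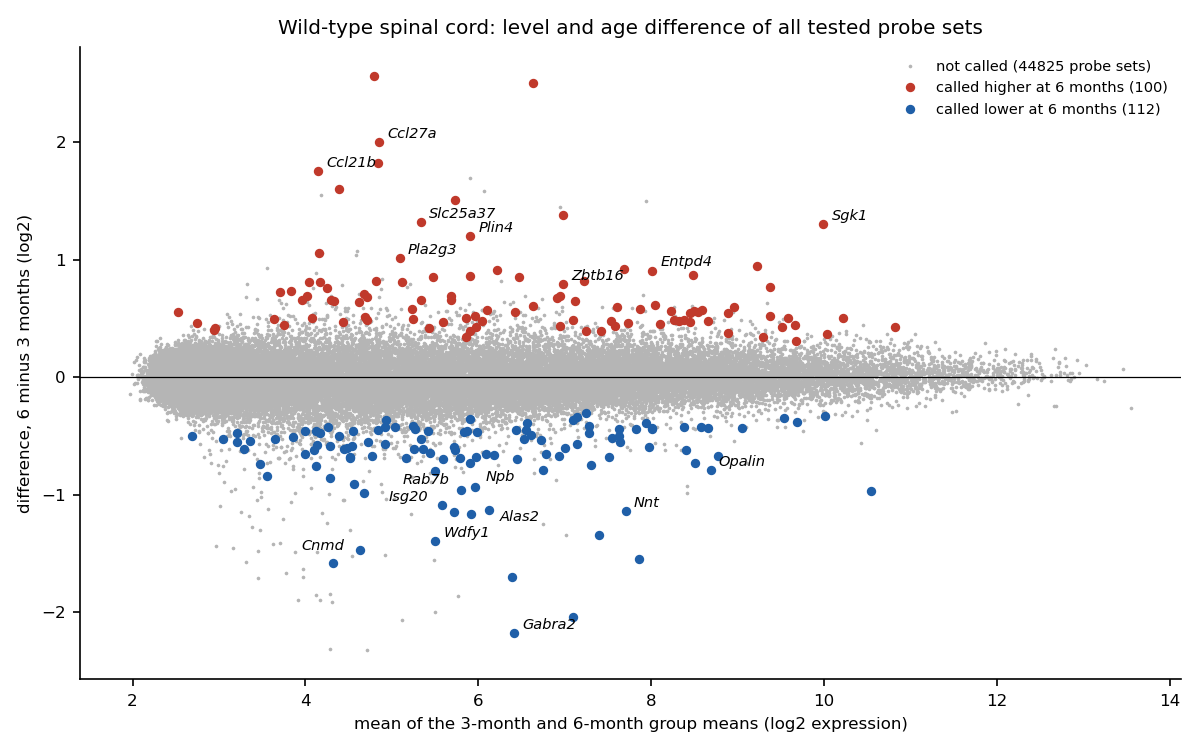
Difference between the ages (y axis, log2, 6 minus 3 months) against the mean level of the 2 ages (x axis, log2) for 45037 probe sets; grey points were not called, red points were called higher (100) and blue points lower (112) at 6 months. The labelled genes are among those described in the text; the 2 highest red points are probe sets with no gene symbol, and the grey points with differences near -2 include muscle genes that were high in a single 3-month array.

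The largest fall was that of Gabra2, the alpha 2 subunit of the GABA-A receptor, through which the transmitter GABA inhibits neurons. Its more strongly changed probe set read 7.53, 7.48 and 7.49 at 3 months and 5.65, 5.33 and 4.98 at 6 months. The difference was -2.18 ± 0.19 (SE, n = 3 per age; 4.53-fold; adjusted p = 1.24e-05, limma). The second probe set, 8.70, 8.64 and 8.57 against 7.23, 7.03 and 7.02, fell by 1.55 log2 units (adjusted p = 2.66e-07). The 3-month values were tightly grouped and more than 1 log2 unit above every 6-month value in both probe sets. Of 28 measured subunits of ionotropic transmitter receptors Gabra2 was the sole one called, and the median difference of the list was 0.01, beside -0.03 over the brightest probe sets of 17097 genes. Gabra5, an extrasynaptic GABA-A subunit, read 7.51 to 7.59 at 3 months and 8.16 to 8.40 at 6 months without passing the test (difference 0.70, adjusted p = 0.0515, limma).

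Nnt, the mitochondrial transhydrogenase that makes NADPH from NADH, was 2.20-fold lower at 6 months. Its values were 8.21, 8.32 and 8.30 at 3 months and 7.13, 7.22 and 7.06 at 6 months (difference -1.14 ± 0.09, adjusted p = 3.47e-06, limma). The second probe set fell by 0.79 (adjusted p = 0.0279), a call lost without WT 1 or WT 2 at 3 months or WT 2 or WT 3 at 6 months (adjusted p = 0.0583 to 0.095). The fall of the first probe set was called in each of the 6 fits without an array and the highest adjusted p among them was 7.11e-05.

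Wdfy1, an endosomal protein with FYVE and WD-repeat domains, fell in 3 of its 4 probe sets. The brightest read 7.81, 8.46 and 7.94 at 3 months and 6.78, 6.81 and 6.57 at 6 months, a difference of -1.35 ± 0.19 (adjusted p = 0.00227, limma). The most changed differed by -1.39 (2.63-fold), and the dim one that was not called by -0.40 (adjusted p = 0.17). For the probe set with a difference of -1.15 (adjusted p = 0.0219) the call was lost without WT 2 at 3 months or without any single 6-month array (adjusted p = 0.0625 to 0.104). WT 2 at 3 months was the highest array in each of the 3, and the ages did not overlap in them, as in all 212 called probe sets.

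Among the genes that rose, the chemokine genes Ccl27a and Ccl21b led. Both encode attractants of lymphocytes, and they lie next to each other among the genes of the array on chromosome 4, in a stretch where the C57BL/6 genome carries several nearly identical copies, so that the probe sets may read more than 1 copy. Ccl27a read 3.79, 3.89 and 3.86 at 3 months and 5.93, 5.98 and 5.63 at 6 months (difference 2.00 ± 0.10, 4.0-fold, adjusted p = 5.39e-09, limma). Its second called probe set rose by 1.60 (adjusted p = 4.77e-05), while the 2 brightest, with group means of 7.46 to 7.63, differed by -0.06 and -0.03. Ccl21b read 3.40, 3.11 and 3.29 against 4.98, 4.84 and 5.24, a difference of 1.75 ± 0.16 (adjusted p = 1.77e-05). The ages were far apart in all 3 called probe sets, but only in dim ones. Fam205a1, 2 positions further along, rose by 0.60 (adjusted p = 0.0313). That call was lost without WT 1 or WT 2 at 3 months or without any single 6-month array (adjusted p = 0.0526 to 0.105).

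Slc25a37 (mitoferrin-1, which carries iron into mitochondria) and Entpd4 (a Golgi and lysosomal nucleotidase) are neighbours on chromosome 14 and rose together. The brighter called probe set of Slc25a37 read 8.77, 8.78 and 8.72 at 3 months and 9.65, 9.70 and 9.76 at 6 months (difference 0.95 ± 0.08, adjusted p = 7.07e-06, limma). The dimmer one rose by 1.32 (adjusted p = 0.000269), and the remaining one, of mean level 7.29 and 7.14, differed by -0.14 (adjusted p = 0.631). Entpd4 read 7.71, 7.53 and 7.43 against 8.36, 8.65 and 8.38, a rise of 0.91 ± 0.09 (adjusted p = 8.16e-05). The groups were separate in these called probe sets, as in all 212, and the calls held in each of the 6 fits without an array. The gene order was taken from the RefSeq annotation of GRCm38.p6.

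Ide, the insulin-degrading enzyme, was higher at 6 months in all 4 of its probe sets. The brightest read 8.43, 8.37 and 8.44 at 3 months and 8.90, 8.87 and 8.92 at 6 months (difference 0.48 ± 0.06, adjusted p = 0.000765, limma), and the next brightest rose by 0.56 (adjusted p = 0.000145). Both were called in each of the 6 fits without an array. In the 6 spinal cord arrays fitted alone the brightest was not called (adjusted p = 0.0676, limma) and the next brightest was (0.0408). The most changed, a dim one, read 4.60, 4.54 and 4.99 against 5.51, 5.84 and 5.21 and rose by 0.81, a call lost without WT 1 or WT 2 of either age (adjusted p = 0.0878 to 0.161). The last rose by 0.66, and its call was kept only without WT 3 at 6 months (adjusted p = 0.041, and 0.082 to 0.219 without any other array). Fgfbp3, which binds fibroblast growth factors and lies 4 positions from Ide on chromosome 19, rose by 0.74 (adjusted p = 0.00895), with an adjusted p of 0.0531 without WT 2 at 6 months.

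Nnt, Wdfy1, Entpd4 and Ide belong to a list of 7 genes that have been described as differing between C57BL/6 substrains or colonies. C57BL/6J mice carry a deletion that removes exons of Nnt, and an intronic one that lowers Gabra2 mRNA. Of the 7 listed genes 2 were called higher and 2 lower, where 0.205% of all genes were called higher and 0.357% lower. The list was chosen with earlier results of these data known, so its counts are not independent of them. The other members, among them Crb1 with a difference of 0.23 (adjusted p = 0.717), did not pass. The array holds no genotype, and whether the mice of both ages carried the same alleles was not tested.

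The 6 KO spinal cord arrays give these levels in other mice at the same ages. Their labels carry the same animal numbers at both ages, and the KO ages were also treated as separate mice. For Nnt the KO means were 7.09 at 3 months and 7.13 at 6 months, beside a WT mean of 8.28 at 3 months and 7.14 at 6 months. The more changed Gabra2 probe set read 5.95 to 6.05 in KO at 3 months and 5.44 to 5.56 at 6 months, and Slc25a37 read 9.64 to 9.77 and 9.60 to 9.84, in both cases outside the WT range at 3 months. The brightest Ide probe set gave the opposite picture, with KO means of 8.34 and 8.33 that lay beside the WT 3-month mean of 8.41, not the 6-month mean of 8.90. The brightest Wdfy1 probe set also read nearer WT at 3 months, with KO means of 8.52 and 8.45 against 8.07 and 6.72 in WT. Among the 15 largest changes per direction, all 6 KO arrays lay nearer the WT 6-month mean for 13 genes, 9 that rose and 4 that fell, and none of the 6 did for 3 genes, Wdfy1, Lrg1 and Plac8.

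**Figure D3:**
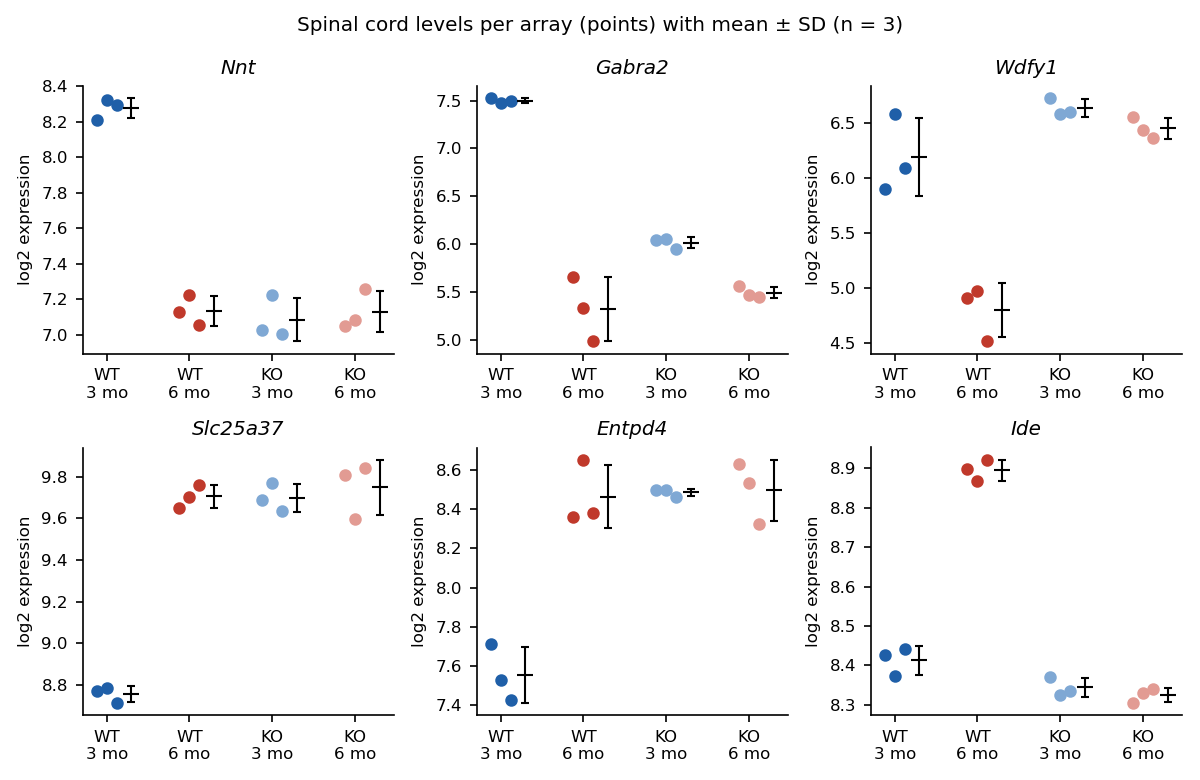
log2 levels of 6 genes in each spinal cord array (points) with the group mean and SD (bars, n = 3), for WT and KO mice at 3 and 6 months (mo). For Nnt, Slc25a37 and Entpd4 the WT group at 3 months stands apart from the other 3 groups, and for Wdfy1 and Ide it is the WT group at 6 months that does.

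Among genes that glucocorticoid hormones are known to induce, Sgk1, Plin4 and Zbtb16 rose. Of 20 measured genes of the receptor and its targets these 3 rose, where 0.205% of all genes were called higher, and 17 did not pass the test. The median difference was 0.25 beside -0.03 over all genes. In 11 of the 20 every 6-month array was higher than every 3-month array, which held for 7.4% of all genes. Sgk1, a kinase that the hormone induces within hours in many tissues, read 9.14, 9.08 and 9.80 at 3 months and 10.90, 10.51 and 10.53 at 6 months (difference 1.31 ± 0.22, 2.47-fold, adjusted p = 0.0101, limma). Plin4, which coats lipid droplets, read 5.40, 5.21 and 5.30 against 5.95, 6.47 and 7.11 and rose by 1.20 ± 0.21 (adjusted p = 0.0121). Zbtb16, a zinc finger repressor, read 6.74, 6.59 and 6.43 against 7.25, 7.57 and 7.31 and rose by 0.79 ± 0.12 (adjusted p = 0.00418). The groups did not overlap in any of the 3, which held for all 212 called probe sets. A second, dimmer probe set of Zbtb16 rose by 0.78 without passing the test (adjusted p = 0.0682, limma).

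The other members moved less. Nfkbia, the inhibitor of NF-kappa B, differed by 0.45 (adjusted p = 0.203), Klf9 by 0.29 and Tsc22d3 by 0.26, and the receptor genes themselves, Nr3c1 and Nr3c2, by 0.00 and 0.17. Fkbp5 and Dusp1, targets that also respond fast, differed by 0.14 and -0.06. The Sgk1 call was lost without WT 1 or WT 2 at 3 months or WT 1 at 6 months (adjusted p = 0.0575, 0.0606 and 0.0643), and that of Plin4 without WT 2 of either age (0.0582 and 0.0507), whereas Zbtb16 kept its call in each of these fits. None of the 3 was called in the 6 arrays fitted alone (adjusted p = 0.0676 to 0.154). Hormone levels and the hour of dissection were not analysed here.

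The promoter of Sgk1 is printed because it is the single promoter among those of the 98 called genes with a RefSeq window that holds the palindromic glucocorticoid response element, searched as AGAACA and TGTTCT with any 3 bases between them, on both strands, from 250 bases before to 50 bases after each start. The element is found in 3 of 32851 such windows in the mouse (0.00913%), and in 1 of the 16 list members with a window. One of 6 windows of Sgk1 holds it, at position -189 from that start, on the plus strand of chr10:21993640-21993939 (GRCm38.p6, RefSeq). The E-box CACGTG and elements for other factors were searched in the same way. Of the 98 called genes 15 (15.3%) held an E-box in at least 1 window, beside 7.15% of all windows. The first share counts genes and the second counts windows. The capitals mark the glucocorticoid element, and an E-box at base 5 of the window is left unmarked.
Sgk1: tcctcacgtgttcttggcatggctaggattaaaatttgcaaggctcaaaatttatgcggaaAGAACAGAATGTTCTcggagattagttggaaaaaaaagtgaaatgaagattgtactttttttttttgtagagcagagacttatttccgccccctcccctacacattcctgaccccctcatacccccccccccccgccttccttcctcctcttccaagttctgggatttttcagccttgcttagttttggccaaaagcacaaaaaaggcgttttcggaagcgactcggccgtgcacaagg
A match describes these letters and not a bound site.

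Further genes rose by about 2-fold or less. Pla2g3, a secreted phospholipase, read 4.55, 4.62 and 4.59 at 3 months and 5.53, 5.40 and 5.86 at 6 months (difference 1.01 ± 0.14, adjusted p = 0.00207, limma). It kept its call in each fit without an array, as did the predicted gene Gm3715 (0.82, adjusted p = 0.00418). In the 6 spinal cord arrays fitted alone Pla2g3 was called (adjusted p = 0.0312, limma) and Gm3715 was not (0.136). Arrdc2, an arrestin-domain protein, rose by 0.85 (adjusted p = 0.0139) and lost the call without WT 1 or WT 2 at 3 months or WT 1 at 6 months (adjusted p = 0.055 to 0.0766). For Eif2s3x, Lrp1b, Lrmda and Rnf14 the rise of 0.91, 0.81, 0.76 and 0.70 came from dim or minor probe sets. Eif2s3x, the X-linked translation initiation subunit, had bright probe sets at 10.07 and 9.46 at 3 months that differed by 0.01 and 0.13, and the brightest of Rnf14, at 10.43, differed by 0.06. The call was lost for Eif2s3x without any array other than WT 3 at 6 months (adjusted p = 0.0504 to 0.153), and for Lrp1b without any other than WT 3 at 3 months (0.0549 to 0.156). It was lost for Lrmda without any array other than WT 1 at 3 months (0.0878 to 0.189), and for Rnf14 without WT 1 or WT 3 at 3 months or WT 1 or WT 2 at 6 months (0.0595 to 0.0963).

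Of the oligodendrocyte genes, 1 of the myelin list and 1 of the precursor list fell, where 0.357% of all genes were called lower. Opalin, a membrane protein of myelinating oligodendrocytes, read 9.13, 8.99 and 9.13 at 3 months and 8.43, 8.30 and 8.15 at 6 months, a fall of 0.79 ± 0.10 (1.73-fold, adjusted p = 0.000905, limma), and it kept its call in all 18 alternative fits and thresholds. A second, dim probe set of the gene differed by -0.15. Opalin was the only one of 13 measured myelin genes to be called. Mog, Mobp and Cldn11 differed by 0.24, 0.21 and 0.18, Mbp by 0.13, and the list median was 0.06. The 9 genes of precursors and newly formed oligodendrocytes had a median of -0.18 (-0.16 to -0.19 without any one array), and 4 of them were lower without overlap, which held for 13% of all genes, and 2 higher. Of the 9 genes 1 fell, Tmem100, from 6.72 to 7.04 down to 6.30 to 6.49 (difference -0.50, adjusted p = 0.036). Gpr17, a receptor of cells that are about to myelinate, read 7.08, 7.22 and 6.96 against 6.50, 6.59 and 6.62 without passing (difference -0.52, adjusted p = 0.0538), and Bmp4 differed by -0.60 (adjusted p = 0.384). The Tmem100 call was lost without WT 1 or WT 2 at 3 months or WT 2 or WT 3 at 6 months (adjusted p = 0.0853 to 0.162).

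Pmp2, the fatty acid binding protein of peripheral myelin, read 6.02, 7.27 and 6.20 at 3 months and 5.26, 5.07 and 5.67 at 6 months (difference -1.16 ± 0.22, adjusted p = 0.0252, limma). It was the only called member of 8 genes of Schwann cells and nerve roots, whose median difference was -0.04, and which ran from -0.19 without WT 3 at 3 months to 0.13 without WT 2 at 3 months as 1 array was left out. The highest value of Pmp2 was that of WT 2 at 3 months, the array with the highest Schwann cell and ganglion levels, and without that array the difference was -0.77 and the adjusted p 0.0304. The call was lost without WT 1 or WT 2 at 6 months (adjusted p = 0.0893 and 0.144). In the 6 spinal cord arrays fitted alone Pmp2 was not called (adjusted p = 0.223, limma). Its SD in these arrays was 0.68 at 3 months and 0.31 at 6 months.

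Several other falls kept their call when any 1 array was left out. Cnmd (chondromodulin, a matrix protein of avascular tissue) read 5.29, 5.82 and 4.98 at 3 months and 4.21, 3.47 and 3.99 at 6 months (difference -1.47 ± 0.21, adjusted p = 0.00225, limma). In the 6 spinal cord arrays fitted alone Cnmd was not called (adjusted p = 0.0879, limma). Alas2, which starts heme synthesis in red cell precursors, read 6.83, 6.46 and 6.80 against 5.77, 5.46 and 5.45 (difference -1.13 ± 0.16, adjusted p = 0.00253). The alpha globin gene Hba-a1 read 13.64 to 13.71 against 13.33 to 13.52 without passing (difference -0.26, adjusted p = 0.284), and Alas2 was the only called one of 6 erythroid genes.

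Isg20, an interferon-induced exonuclease, fell from 6.24, 5.93 and 6.22 to 5.15, 4.74 and 5.23 (difference -1.09 ± 0.15, adjusted p = 0.00191, limma), and none of the 17 measured members of the interferon list, which does not hold it, passed the test. Rab7b, a GTPase of the route from late endosomes to the Golgi, fell from 6.45, 6.07 and 6.32 to 5.25, 5.41 and 5.30 (difference -0.96 ± 0.11, adjusted p = 0.000222) and by 0.51 in a second probe set, a call lost without WT 1 at 6 months (adjusted p = 0.0518). Npb, the precursor of neuropeptide B, fell from 6.49, 6.39 and 6.41 to 5.63, 5.25 and 5.62 (difference -0.93 ± 0.13, adjusted p = 0.00122). The calls of Cnmd, Alas2, Isg20, Npb and the first Rab7b probe set held in each of the 6 fits without an array. Those fits still pool the spread with cerebellum and midbrain. In the 6 spinal cord arrays fitted alone Alas2, Isg20, Npb and that Rab7b probe set were called (adjusted p = 0.0309 to 0.0459, limma), and Cnmd was not.

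The remaining named falls depended on single arrays. Lrg1, a glycoprotein that acts on vessels, fell by 0.85 (adjusted p = 0.00806, limma; 0.0573 without WT 2 at 6 months) and Igsf1, a membrane glycoprotein encoded on the X chromosome, by 0.80 (adjusted p = 0.015; 0.0818 to 0.082 without WT 2 at 3 months or WT 1 or WT 2 at 6 months). Lrg1 lies 2 positions from Plin4, which rose. The uncharacterized 9630013A20Rik fell by 0.99 (adjusted p = 0.0169) and lost its call without WT 1 or WT 3 of either age (0.0575 to 0.0738). Plac8 fell by 0.75 (adjusted p = 0.0361) and Hoxd4, the only called one of 26 Hox genes, by 0.73 (adjusted p = 0.0387). Both were lost without WT 1 or WT 3 at 3 months or WT 2 or WT 3 at 6 months, at adjusted p of 0.0995 to 0.155 for Plac8 and 0.11 to 0.166 for Hoxd4. Hoxa2 read 3.07 to 3.75 against 4.02 to 4.17, opposite to Hoxd4, without passing (difference 0.63, adjusted p = 0.0523), and the Hox median was 0.00.

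Among neuropeptide genes Cartpt and Gal fell. Of 21 measured peptides and growth factors these 2 fell, where 0.357% of all genes were called lower, and 19 did not pass the test. Of the 21 differences 5 were above 0, where 41.5% of all genes were. The median was -0.13 beside -0.03 over all genes (-0.08 without WT 1 at 3 months). Cartpt, a peptide precursor of autonomic and sensory neurons, read 7.93, 7.94 and 7.87 at 3 months and 7.38, 7.47 and 7.25 at 6 months (difference -0.55 ± 0.10, adjusted p = 0.0228, limma). Gal, the precursor of galanin, read 6.72, 6.95 and 6.72 against 6.30, 5.75 and 6.26 (difference -0.69 ± 0.14, adjusted p = 0.0394). Vgf differed by -0.44 and Igf1 by -0.41, with adjusted p of 0.201 and 0.381. Cartpt was lost without WT 1 or WT 2 at 3 months or WT 1 or WT 3 at 6 months (adjusted p = 0.0706 to 0.0849), and Gal without any single 3-month array or WT 2 at 6 months (0.0576 to 0.185). Gal is also made in sensory ganglia, whose markers were high in WT 1 and WT 2 at 3 months, and their part in the difference was not tested. The Cartpt promoter is shown because it is one of 3 promoters of called genes that hold the cAMP response element TGACGTCA (capitals; searched on both strands; found in 1.79% of all windows), at position -112 from the start on the minus strand of chr13:99900634-99900933 (GRCm38.p6, RefSeq).
Cartpt: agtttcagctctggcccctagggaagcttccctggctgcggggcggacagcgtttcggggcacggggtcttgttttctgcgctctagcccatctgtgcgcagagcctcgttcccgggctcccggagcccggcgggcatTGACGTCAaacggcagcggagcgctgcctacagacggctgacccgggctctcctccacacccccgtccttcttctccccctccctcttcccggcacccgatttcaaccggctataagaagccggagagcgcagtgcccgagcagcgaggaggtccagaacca

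Few genes of the matrix, of vessels and of cell division were called. Of 22 collagen genes none was, and 1 difference was above 0, where 41.5% of all genes were, with a median of -0.23. Col3a1, a fibrillar collagen of meninges and vessels, read 8.99, 9.72 and 7.95 at 3 months and 8.41, 7.53 and 7.93 at 6 months (difference -0.93, adjusted p = 0.302, limma). The ages overlapped, and the collagen level was highest in WT 2 and lowest in WT 3 at 3 months. The list median was -0.11 without WT 2 at 3 months, the array with the highest ganglion and Schwann cell levels, and -0.35 without WT 3 at 3 months. Of 23 matrix proteins and their enzymes the median was -0.25, and 1 fell, where 0.357% of all genes were called lower. That was Mmp14, a membrane-bound collagenase, from 6.60, 6.59 and 6.36 to 6.04, 5.71 and 5.82 (difference -0.66 ± 0.11, adjusted p = 0.00927). Mmp2, the gelatinase that it activates, differed by -0.78 (adjusted p = 0.0508). Without WT 2 at 3 months the matrix median was -0.13.

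The Mmp14 call was lost without WT 1 or WT 2 at 3 months or WT 2 at 6 months (adjusted p = 0.0521 to 0.0677, limma). Kdr, the main VEGF receptor of endothelium, read 6.09, 5.97 and 6.07 at 3 months and 5.31, 5.42 and 5.55 at 6 months (difference -0.62 ± 0.12, adjusted p = 0.0216). It was the only called one of 11 endothelial genes, whose median was 0.01, and was lost without WT 1 or WT 3 at 3 months or WT 1 or WT 2 at 6 months (0.0522 to 0.0965). None of 17 genes of the G2 and M phases of the cell cycle was called, 1 difference was above 0, where 41.5% of all genes were, and the median was -0.15 (-0.28 without WT 1 at 3 months). Of these 16 had mean levels below the median of all probe sets, as did Top2a, a topoisomerase of dividing cells, at 3.06, 3.19 and 4.06 against 2.92, 2.55 and 2.70.

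Of the cholesterol synthesis genes, Fdps and Tm7sf2 fell. Of 19 measured these 2 fell, where 0.357% of all genes were called lower, and 17 did not pass the test. The median difference was -0.13, and 11 were lower in every 6-month array than in every 3-month array, which held for 13% of all genes. Fdps, which makes farnesyl diphosphate, read 9.21, 9.33 and 9.25 at 3 months and 8.83, 8.84 and 8.83 at 6 months (difference -0.43 ± 0.09, adjusted p = 0.0445, limma). Tm7sf2, a sterol reductase, read 7.40, 7.61 and 7.46 against 7.09, 6.99 and 7.15 (difference -0.41 ± 0.08, adjusted p = 0.0202). Nsdhl and Mvk differed by -0.33 each (adjusted p = 0.0681 and 0.115), and Hmgcs1 by 0.01. These were changes of 1.35-fold or less. The Fdps call was lost without any single array (adjusted p = 0.0837 to 0.163), and that of Tm7sf2 without WT 2 at 3 months or WT 1 or WT 2 at 6 months (0.0672 to 0.117).

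Microglial genes, which mark the resident macrophages of the cord, all had differences above 0, where 41.5% of all genes did, and none was called. The 13 differences ran from 0.11 to 0.30 with a median of 0.20, beside -0.03 over all genes, and 10 of the 13 did not overlap between the ages, where 7.4% of all genes were higher without overlap. P2ry12, a purinergic receptor of resting microglia, read 7.47, 7.41 and 7.42 at 3 months and 7.63, 7.63 and 7.65 at 6 months (difference 0.20, adjusted p = 0.478, limma). Ctss, a lysosomal protease, read 10.27, 10.42 and 10.44 against 10.70, 10.61 and 10.73 (difference 0.30, adjusted p = 0.132). The list of activated microglia had no called member and a median of 0.03. Astrocyte, neuron and motor neuron lists had no called member and medians of 0.08, -0.02 and -0.05.

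Single members of other lists fell. Atf3, a transcription factor induced in injured sensory and motor neurons, read 3.63, 3.71 and 3.45 at 3 months and 2.89, 3.06 and 3.00 at 6 months (difference -0.61, adjusted p = 0.00674, limma), below the median level of all probe sets at both ages, and was the only called one of 23 immediate early genes. Fos and Egr1 differed by -0.62 and -0.37 (adjusted p = 0.745 and 0.473), and Egr2 by 0.53 (adjusted p = 0.117). Gzma, a protease of cytotoxic lymphocytes, fell by 0.50 at levels of 2.27 to 3.08 and lost its call without WT 1 or WT 2 at 3 months or WT 2 or WT 3 at 6 months (adjusted p = 0.0756 to 0.138). No member of the clock, complement, heat shock, respiratory chain, stress granule or imprinted lists passed the test, and their medians lay between -0.06 and 0.10 (for complement 0.10, and -0.12 without WT 3 at 3 months).

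**Figure D4:**
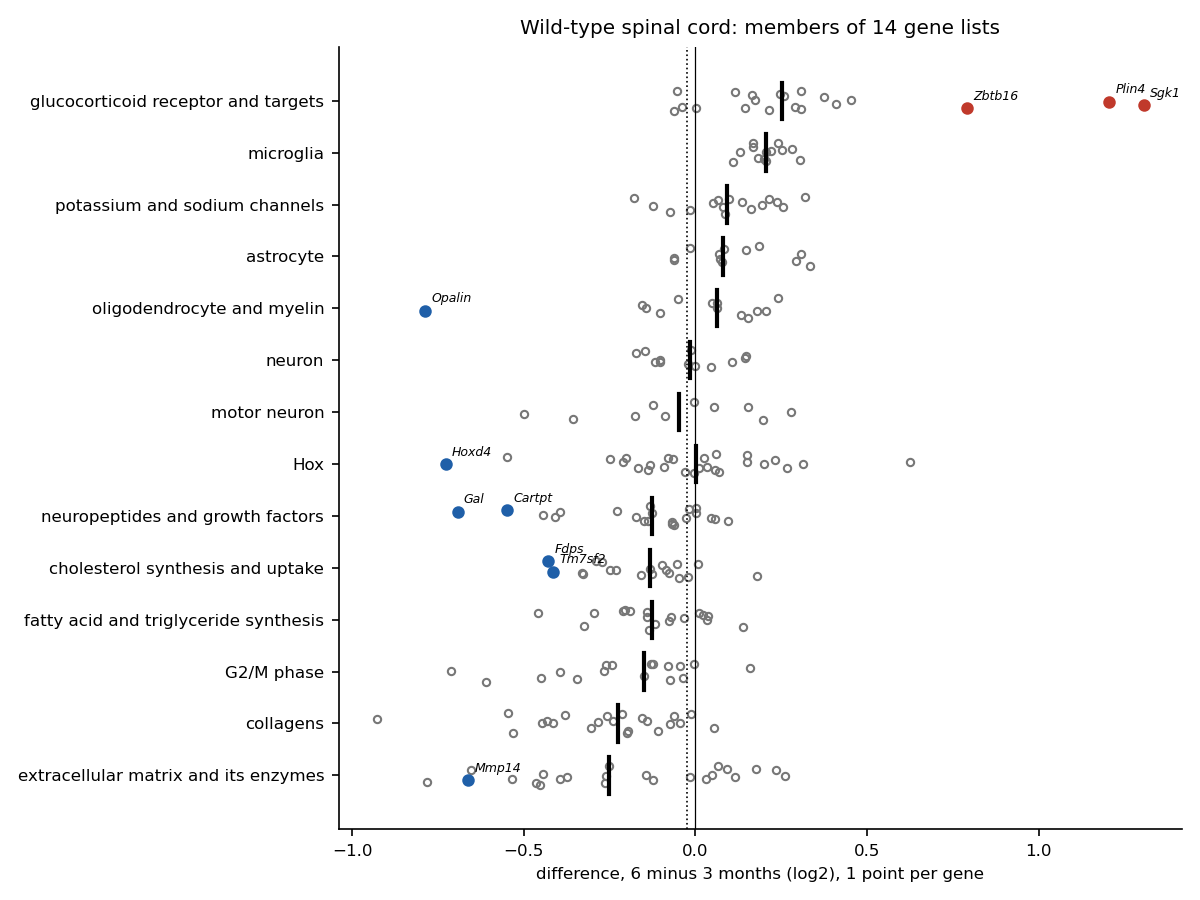
Difference between the ages (x axis, log2, 6 minus 3 months) of each measured member of 14 gene lists in WT spinal cord, 1 point per gene; filled points were called (red higher, blue lower), open points were not, black bars are list medians and the dotted line is the median of all genes (-0.03). All 13 microglia points lie right of 0 and 21 of 22 collagen points lie left of it, with none of either called.

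The cerebellum and midbrain of WT mice show which of these changes were shared. In midbrain 210 probe sets passed for age (0.466%), and 70 of them were among the 212 with the same direction, which is 33% of the spinal cord calls and 33.3% of the midbrain calls, with none opposite. In cerebellum 897 passed (1.99%), and 60 were shared in direction (28.3% and 6.69%) and 4 opposite. Nnt differed by -1.27 in cerebellum and -1.03 in midbrain, Wdfy1 by -1.24 and -1.43, Entpd4 by 0.70 and 0.89 and Gabra2 by -1.61 and -1.66, each called in both. Plin4 (1.28 and 1.35), Zbtb16 (0.72 and 0.62) and Arrdc2 (1.05 and 0.77) were also called in both tissues, and the glucocorticoid list had 8 called members in cerebellum and 5 in midbrain with medians of 0.38 and 0.27, against none and a median of 0.05 in KO spinal cord. The dimmer Zbtb16 probe set differed by -0.02 in cerebellum and 0.43 in midbrain and was called in neither. Sgk1 was called in midbrain (1.14) and not in cerebellum (0.65, adjusted p = 0.144). Opalin differed by -0.44 and -0.68, called in both, and Kdr was called in midbrain (-0.69) and differed by -0.09 in cerebellum. The study's methods give 3 mice per age for all tissues, so that the tissues share their mice and are not independent of each other.

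The age difference in spinal cord was tested against that in cerebellum in the same fit, and 224 probe sets differed (0.497%), 114 more positive and 110 more negative in spinal cord. That number was 33 without WT 2 at 6 months, 50 without WT 2 at 3 months, 75 without WT 1 at 6 months and 94 without WT 1 at 3 months. The change of Gal in spinal cord minus that in cerebellum, where it differed by 0.46, was -1.16 (adjusted p = 0.022, limma). That of Npb was -1.12 (adjusted p = 0.0135), from 0.19 in cerebellum. Ccl27a and Ccl21b rose in both tissues, and their changes in spinal cord minus those in cerebellum were -1.13 and -1.94 (adjusted p = 0.00247 and 0.000972). Eif2s3x, Lrp1b and Rnf14 had differences between the tissues of 1.41, 1.26 and 1.23, all from dim or minor probe sets. So had Nr1d2, a clock repressor, with 1.80 (adjusted p = 0.00782) from 0.80 in spinal cord, where it was not called, and -1.01 in cerebellum, while its bright probe set differed by 0.11 and 0.00. Slc7a3 and Chac1, targets of amino acid stress, differed by 0.11 and -0.05 in spinal cord and were higher by 2.60 and 1.56 in cerebellum.

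The Gal difference between the tissues was lost without WT 2 of either age (adjusted p = 0.0579 and 0.0511, limma). That of Lrp1b was lost without WT 1 or WT 2 at 3 months or WT 2 at 6 months (0.0568 to 0.0732) and that of Eif2s3x without WT 2 at 3 months or WT 1 or WT 2 at 6 months (0.0541 to 0.0578). Against midbrain 5 probe sets differed (0.0111%), among them Srpk3, a kinase of splicing factors, which read 4.35, 4.37 and 4.52 at 3 months and 3.84, 3.70 and 3.84 at 6 months in spinal cord and differed by 0.08 in midbrain (difference between the tissues -0.70, adjusted p = 0.0191). The limma count was 0 without WT 1 or WT 2 at 3 months or WT 2 or WT 3 at 6 months (2479, 2244, 2243 and 2748 at an unadjusted p under 0.05), 3 without WT 1 at 6 months and 10 without WT 3 at 3 months. A brighter Srpk3 probe set, with a mean of 5.59 at 3 months, differed by -0.26 in spinal cord and -0.28 in midbrain (difference between the tissues 0.02, adjusted p = 0.999). Without the same 4 arrays the adjusted p of the called Srpk3 probe set was 0.0569 to 0.0951. The dimmer Rab7b probe set was another of the 5 (difference between the tissues -0.76, adjusted p = 0.0458, limma). The brighter Rab7b probe set did not pass against midbrain (-0.66, adjusted p = 0.585). Alas2 and Isg20 differed by -0.35 and 0.02 in midbrain, and their differences between the tissues did not pass the test (adjusted p = 0.823 and 0.377).

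**Figure D5:**
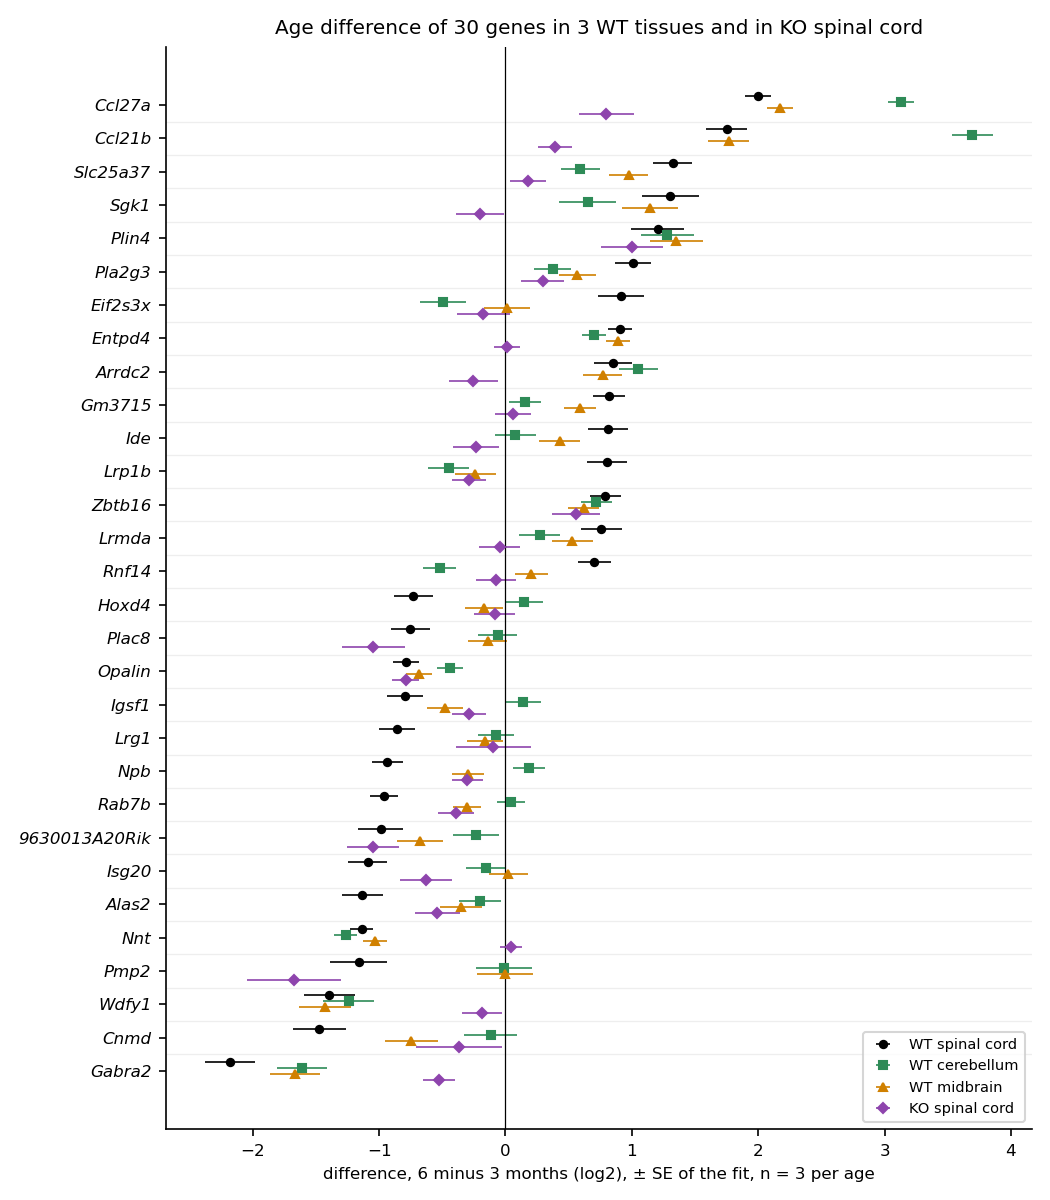
Difference between the ages (x axis, log2, 6 minus 3 months, ± SE, n = 3 per age) of the 15 largest changes in each direction in WT spinal cord, cerebellum and midbrain (fitted together) and in KO spinal cord (fitted with the WT spinal cord arrays). The points of Nnt, Wdfy1, Entpd4, Plin4 and Zbtb16 lie close together in the 3 WT tissues, whereas the KO points of Nnt (0.04) and Entpd4 (0.01) lie at 0.

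In KO spinal cord 14 probe sets passed for age (0.0311%), 1 higher and 13 lower, in a fit of the 12 spinal cord arrays of both genotypes, and 2 of them were among the 212 with the same direction. The age differences of WT and KO cords differed for 6 probe sets (0.0133%), and for 11 without WT 2 at 3 months. The WT change minus the KO change was -1.65 for Gabra2 (adjusted p = 0.00444, limma), -1.18 for Nnt (adjusted p = 0.00302) and 0.90 for Slc25a37 (adjusted p = 0.0153). The second Gabra2 probe set gave -1.20 (adjusted p = 0.00112). One probe set of Meg3, a noncoding RNA from an imprinted locus, read 10.21 to 10.37 and 10.20 to 10.29 in WT and fell in KO from 10.19 to 10.37 down to 8.34 to 8.74, so that its change differed by 1.66 (adjusted p = 0.00112), while none of the other probe sets of the gene was called for this difference. The Slc25a37 difference was lost without WT 1 or WT 3 at 3 months or WT 2 or WT 3 at 6 months (adjusted p = 0.0509 to 0.075). Opalin fell by 0.79 in both genotypes, and Cartpt differed by -0.53 in KO. Sgk1 differed by -0.20 in KO, where its 6 arrays read 10.45 to 11.08, above the WT range at 3 months, and Plin4 by 1.00 from KO levels of 7.06 to 7.15 at 3 months. For neither did the difference between the genotypes pass the test (adjusted p = 0.203 and 0.927).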

How the data were processed

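The values deposited by the authors are log2 expression levels per probe set of HT MG-430 PM arrays, made with Robust Multichip Average in R 2.14.0 according to the submitters' processing notes. That procedure subtracts background, quantile normalizes and summarizes probes. Of 45141 probe sets, 104 controls were left out and 45037 tested. The annotation gives 1 gene symbol to 28898. Group means were fitted to the 18 WT arrays of spinal cord, cerebellum and midbrain (12 residual and 5.46 prior degrees of freedom), and the WT and KO contrast to 12 spinal cord arrays, with limma (3.58.1, with statmod 1.5.0) under R 4.3.3. Calls used a Benjamini-Hochberg adjusted p under 0.05, 2-sided. Differences, medians and SE are on the log2 scale, and gene lists take the brightest probe set of each gene over the 6 arrays and have no test of their own. The SE of a spinal cord difference uses the spread pooled over the 18 arrays, not that of the spinal cord arrays alone. Members and lists were chosen with earlier results of these data known. The rule names, per direction, the 15 largest called changes with 1 symbol, no overlap between the ages and a level above the median of all probe sets. It also names the called and largest members of each list described, and per direction the 5 largest called differences from another tissue or genotype. Fgfbp3, Fam205a1, Npb and Rab7b against cerebellum and the genes given with KO or midbrain values were added after their values were seen. Data were simulated with the tissue means and spreads of the 18 arrays (45037 probe sets), independent noise, and changes only in probe sets brighter than the median. In these, 64% of 1.5-fold, 96% of 2-fold and 100% of 3-fold changes were called, with 9 unchanged ones among 187 calls. Dim probe sets were not given changes, and shifts that many genes share in 1 array were not simulated. The median SD within groups was 0.113, and precision is set by how few arrays there are. The p-values measure the spread between these samples, which the labels number as separate mice. No 3 against 3 permutation can give a p below 0.1. Promoters come from RefSeq (GRCm38.p6), for 98 of 135 called genes. Scanner intensities were not analysed here.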

Additional observations from a re-analysis of the deposited data

Results flagged for a closer look

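The age difference itself differed between WT spinal cord and another group of arrays in limma for 224 probe sets against cerebellum, 5 against midbrain and 6 against KO spinal cord (adjusted p under 0.05). Against cerebellum the difference of the log2 changes (spinal cord minus cerebellum) was 1.80 for Nr1d2, 1.41 for Eif2s3x, 1.37 for Etnk1, 1.26 for Lrp1b and 1.23 for Rnf14. It was -2.49 for Slc7a3, -1.94 for Ccl21b, -1.61 for Chac1, -1.16 for Gal and -1.13 for Ccl27a. Slc7a3 and Chac1 were called for age in cerebellum and not in the cord. The adjusted p of Etnk1 rose to 0.0618 to 0.114 without WT 2 or WT 3 at 3 months or WT 1 or WT 2 at 6 months. This Etnk1 probe set is a minor one and was not called for age in the cord. Another, with a mean of 6.49 at 3 months, gave 0.84 (adjusted p = 0.0352, limma). The brightest, with a mean of 10.64, and the remaining ones gave 0.02 to 0.08 (adjusted p = 0.777 to 0.963). Against midbrain the difference of the log2 changes was -0.70 for Srpk3. Between the genotypes (WT minus KO) it was -1.65 for Gabra2, -1.18 for Nnt, 1.66 for Meg3 and 0.90 for Slc25a37. No group of 3 arrays was tested for a single extreme array.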

How the results depend on the processing

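All 212 called probe sets kept their direction under each of the 18 alternatives, or 178 of 178 where a filter on dim probe sets was set, and 25 were called under all of them. Only the centring and the quantile normalization could have turned a direction. The other alternatives kept the values of the 6 arrays or left out 1 array from ages that did not overlap. The counts moved with the estimate of the spread. Higher and lower calls were 22 and 22 in the 6 spinal cord arrays alone, 37 and 33 with all 24 WT arrays, 57 and 52 with 48 arrays, 45 and 53 with the 12 spinal cord arrays, 184 and 184 with the filter, 242 and 186 with a trended and robust prior, 156 and 123 with arrays centred on brighter probe sets, 22 and 17 after quantile normalization within the 6 arrays, 36 and 41 at an adjusted p under 0.01, and 48 and 55 with at least 1.5-fold. Without 1 array each they ran from 42 to 124 higher and from 52 to 167 lower. With the mouse number as a replicate block the counts were 71 and 71, of which 112 were shared. Same-numbered mice of the 2 ages had residual correlations of 0.154, -0.126 and 0.0540, so that the numbers were not taken to pair the samples. The mouse as a random block (correlation 0.00600) gave the same 212.

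Differences from cerebellum numbered 32 with 24 WT arrays, 443 with the trended prior and 33 to 304 without 1 array. Those from midbrain numbered 0 with 24 WT arrays (1185 at an unadjusted p under 0.05), 3 with the trended prior and 0 to 10 without 1 array. WT and KO differed in 24 probe sets with 48 arrays, in 27 with the trended prior and in 5 to 11 without 1 array. In the 6 arrays alone 0 members of the glucocorticoid, cholesterol and neuropeptide lists were called in limma. The cause of these shifts was not tested. The medians of some lists could turn sign without 1 array, as for skeletal muscle (-1.85, and 0.33 without WT 3 at 3 months). Depth has no counterpart on arrays, and dim probe sets have the least room above background.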
